A study of Ovis aries with 16 samples.

Results

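The genes described here encode the subunits, assembly factors and activators of the proteasome, and they were measured in peripheral lung of lambs on 16 arrays. Members were all genes that the platform's annotation names PSMA, PSMB, PSMC, PSMD, PSME or PSMG followed by a number. A gene read by several probe sets was represented by the one with the highest mean over all 16 arrays. This gave 38 of the 9155 genes tested, 13 of them in the core, 13 in the cap, 3 inducible subunits of the immunoproteasome, 6 assembly chaperones and 3 activators. A further 9 genes listed for these classes were not analysed here: PSMA2, PSMA8, PSMB11, PSMD3, PSMD7, PSMD8, PSMD12, PSMG4 and PSME3. Both groups were lambs aged 3 days, delivered spontaneously. In the 8 shunt lambs a vascular graft (width 8.0 mm, length 2 mm) had joined the aorta to the pulmonary artery since surgery in utero, 9 ± 6 days before term. The labels call this a model of congenital heart disease (CHD) in which pulmonary blood flow (PBF) is increased. The 8 control lambs are labelled sham, and the labels give neither breed nor sex.

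The proteasome is the main protease of the cytosol and nucleus and degrades proteins that carry ubiquitin chains. Its barrel-shaped core is built of rings of alpha subunits, which form the gate, and rings of beta subunits, some of which cut peptide bonds. A cap with a ring of ATPases binds ubiquitinated proteins, unfolds them and threads them into the core. In cells exposed to interferon-gamma, and in many immune cells at rest, the inducible subunits PSMB8, PSMB9 and PSMB10 replace the catalytic subunits PSMB5, PSMB6 and PSMB7 and change which peptides are made for presentation on class I molecules.

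The values are log2 levels made with RMA, so a difference of 1 is a doubling. The probe sets carry bovine identifiers and the RNA was from sheep, which can lower a signal where the sequences differ. The labelled tissue was checked with 7 alveolar type 2 markers. The surfactant genes SFTPA1, SFTPB and SFTPC read at percentiles 98.4, 98.1 and 99.4 of the genes by mean level. SFTPD, ABCA3, LAMP3 and SLC34A2 read lower, at percentiles 80.2, 74.9, 68.9 and 31.1. The arrays correlated at 0.980 to 0.995 with each other, and control replicate 2 was the least like the rest (mean correlation 0.983). Array medians were 7.16 ± 0.02 (SD, n = 8) in control and 7.14 ± 0.01 in shunt lambs (exact permutation test, two-sided, p = 0.000777). Most proteasome genes were bright: 35 of 38 lay above the median level of all genes, and PSMD13, PSMD9 and PSMG3 did not.

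No member passed the threshold between shunt and control (limma with Benjamini-Hochberg adjustment over 9155 genes, adjusted p from 0.172 to 0.988). Over all genes 0.0874% passed that threshold, so a count of 0 among 38 genes is near the background. At an unadjusted p under 0.05, 1 member, PSMC6, was higher in shunt and 0 were lower, where 6.63% of all genes were higher and 7.92% lower. In none of the 38 genes were the groups free of overlap, against 0.153% of all genes. The median difference, shunt minus control, was 0.0019 over the members and -0.01 over all genes, with 19 members above 0 and 19 below. Over the 4578 genes above the median level, where 35 of the members lie, the median was 0.01, and at an unadjusted p under 0.05 shunt exceeded control in 397 and lay below it in 247. Normalizing the arrays by quantiles again changed the split of the 38 members from 19 above and 19 below 0 to 10 above and 28 below.

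The intervals show how large a difference these arrays leave room for. In 35 of 38 members the difference was under 0.1 in size. The 95% intervals of all 38 members lay between -0.39 and 0.38, that is between 0.764-fold and 1.299-fold. For 35 of 38 the interval lay within 0.3 of 0 in both directions, the exceptions being PSMB8, PSMB9 and PSMC6. The interval held 0 for 37 members and did not for PSMC6.

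**Figure D1:**
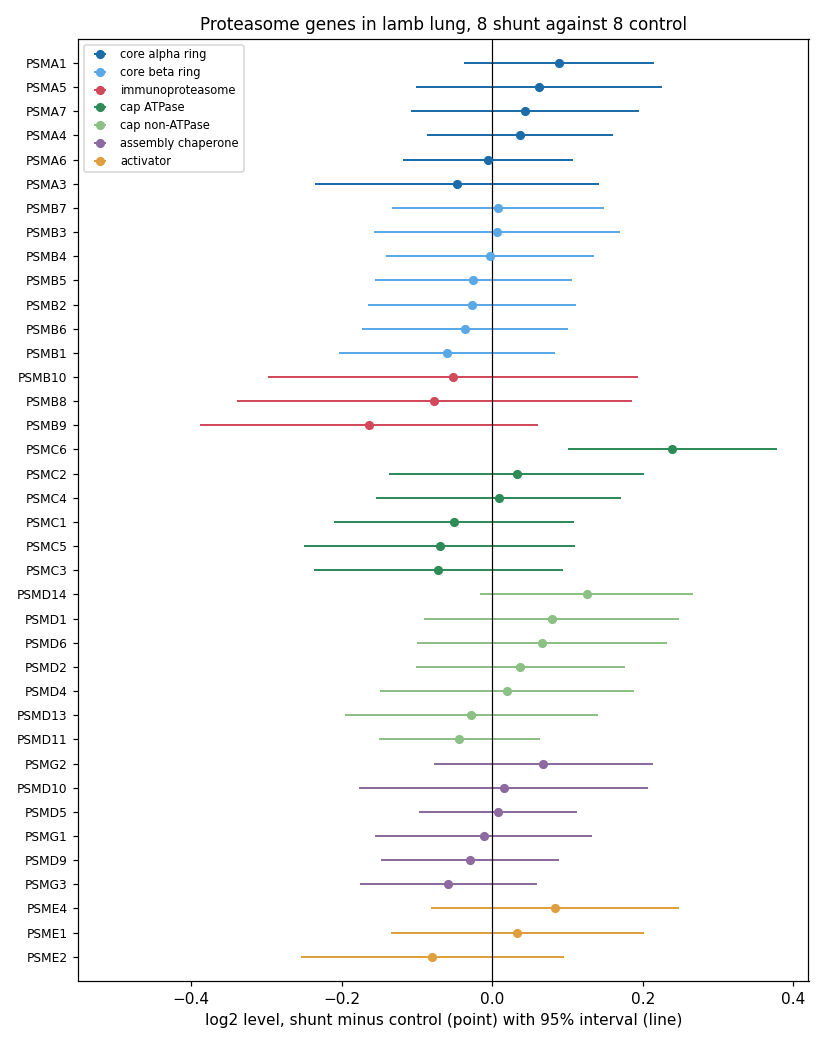
Difference in log2 level, shunt minus control, for each of the 38 proteasome genes (points) with its 95% interval from the limma fit (lines), coloured by class. PSMC6 at 0.24 lies farthest to the right and PSMB9 at -0.16 farthest to the left, and the 3 inducible subunits have the widest intervals.

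The alpha ring, whose subunits form the gate of the core, had differences from -0.05 to 0.09 with a median of 0.04 in 6 genes. PSMA1 had the largest of them. Its level was 10.89, 11.04 and 11.21 (lowest, median and highest of 8) in control and 10.91, 11.12 and 11.26 in shunt lambs, a difference of 0.09 ± 0.06 (SE, limma adjusted p = 0.498) in groups that overlap almost completely. PSMA5 differed by 0.06 ± 0.08, with 10.22, 10.43 and 10.72 in control and 10.23, 10.51 and 10.67 in shunt. At the other end PSMA3 differed by -0.05 ± 0.09 and PSMA6 by -0.01 ± 0.05. PSMA3 had the widest spread of the ring, from 11.04 to 11.65 in control and from 10.90 to 11.44 in shunt lambs. PSMA4 and PSMA7 differed by 0.04 each.

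The beta ring of the core, with 7 genes, had differences from -0.06 to 0.01 and a median of -0.03. PSMB1, a structural subunit, differed the most, with 9.93, 10.32 and 10.47 in control and 10.09, 10.20 and 10.30 in shunt lambs (-0.06 ± 0.07, limma adjusted p = 0.707). The shunt lambs lay inside the range of the controls. The catalytic subunits PSMB5, PSMB6 and PSMB7 differed by -0.03 ± 0.06, -0.04 ± 0.07 and 0.01 ± 0.07. PSMB5, which carries the chymotrypsin-like activity, read 11.19, 11.34 and 11.57 in control and 11.23, 11.29 and 11.61 in shunt. PSMB6, which cuts after acidic residues, read 11.22, 11.39 and 11.53 in control and 11.07, 11.36 and 11.48 in shunt. PSMB7, with the trypsin-like activity, read 10.66, 10.94 and 11.07 in control and 10.72, 10.91 and 11.08 in shunt. For each catalytic subunit the groups cover nearly the same range. PSMB2, PSMB3 and PSMB4 differed by -0.03, 0.01 and -0.0026.

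The ATPase ring of the cap held the member with the largest difference. PSMC6, one of the 6 ATPases that unfold substrates, read 10.32, 10.35, 10.16, 10.47, 10.48, 10.48, 10.39 and 10.60 in control replicates 1 to 8 and 10.53, 10.76, 10.55, 10.68, 10.83, 10.75, 10.49 and 10.57 in shunt replicates 1 to 8. All 8 shunt lambs were above the control mean, and the overlap came from control replicate 8, which was higher than 4 of the shunt lambs. The difference was 0.24 ± 0.07 (SE), or 1.18-fold, with an unadjusted p = 0.00196 and a limma adjusted p = 0.172.

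A second PSMC6 probe set, with a mean of 10.52 against 10.53, differed less. It read from 10.16 to 10.70 in control and from 10.34 to 10.71 in shunt lambs, a difference of 0.09 ± 0.08 (limma adjusted p = 0.596 over probe sets), with 7 of 8 shunt lambs above the control mean. The size of the PSMC6 difference therefore rested on which of the probe sets, nearly equal in level, was read. PSMC2, another ATPase, showed the reverse order. Its brighter probe set read from 11.14 to 11.66 in control and from 11.17 to 11.55 in shunt (0.03 ± 0.08). Its dimmer one read from 10.53 to 10.85 in control and from 10.80 to 10.93 in shunt. It differed by 0.17 ± 0.05 (unadjusted p = 0.00477, limma adjusted p = 0.223 over probe sets), with 8 of 8 shunt lambs above the control mean. In both genes the probe set with the larger difference had all shunt lambs above the control mean and still missed the threshold.

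**Figure D2:**
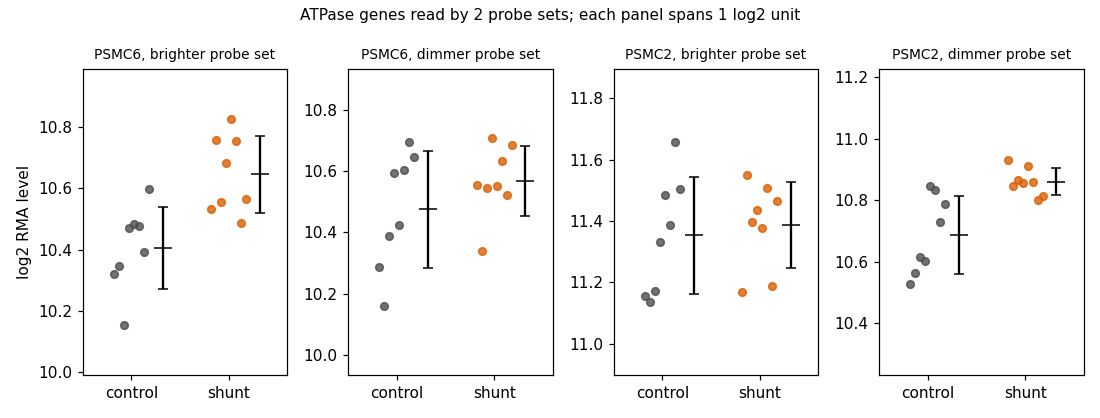
Log2 level in each lamb (points) with mean ± SD (bars) for the 2 probe sets of PSMC6 and of PSMC2, 8 control and 8 shunt lambs. Shunt lambs sit higher with the brighter probe set of PSMC6 (0.24) and the dimmer one of PSMC2 (0.17), and the groups overlap more widely with the other probe set of each gene (0.09 and 0.03).

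The other 4 ATPases lay close to 0. PSMC3 differed by -0.07 ± 0.08 (11.01, 11.45 and 11.60 in control, 11.20, 11.30 and 11.47 in shunt), PSMC5 by -0.07 ± 0.09, PSMC1 by -0.05 ± 0.08 and PSMC4 by 0.01 ± 0.08. The median of the 6 ATPases was -0.02. A second PSMC5 probe set had a low mean of 5.55 and differed by 0.0011. The second probe sets of PSMB2, PSMD4 and PSMD6 differed by -0.05, 0.0093 and 0.01. That of PSMD6 was also low, with a mean of 5.36.

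The non-ATPase subunits of the cap include ubiquitin receptors, scaffolds and a deubiquitinating enzyme, and 7 were measured, with differences from -0.04 to 0.13 and a median of 0.04. PSMD14, the enzyme that removes ubiquitin chains as the substrate is drawn in, was the highest. It read 10.65, 10.94 and 11.12 in control and 10.94, 11.02 and 11.27 in shunt lambs, with 8 of 8 shunt lambs above the control mean. The difference was 0.13 ± 0.07 (unadjusted p = 0.0794, limma adjusted p = 0.393). Its unadjusted p fell under 0.05 with array medians centred (0.15, limma adjusted p = 0.342) and without control replicate 7 (0.15, limma adjusted p = 0.320) or control replicate 8 (0.15, limma adjusted p = 0.279). Other settings made the PSMD14 difference smaller, 0.08 after quantile normalization again and 0.09 without control replicate 2. The limma adjusted p of PSMD14 reached 0.562 over the alternatives and 0.561 with 1 array left out. PSMD1, a large scaffold, differed by 0.08 ± 0.08 (9.94, 10.43 and 10.56 in control, 10.32, 10.41 and 10.49 in shunt). The scaffold PSMD2 differed by 0.04, the ubiquitin receptor PSMD4 by 0.02 and the lid subunit PSMD6 by 0.07. The lid subunits PSMD11 and PSMD13 differed by -0.04 ± 0.05 and -0.03 ± 0.08. PSMD13 was the dimmest member, at a mean of 6.89, and signal over background is unknown there.

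Assembly chaperones hold core or cap intermediates together and leave before the enzyme is active. The 6 measured had differences from -0.06 to 0.07 and a median of -0.0014. PSMG2 was the highest, with 10.99, 11.16 and 11.50 in control and 11.13, 11.25 and 11.40 in shunt (0.07 ± 0.07), and its partner in the alpha ring chaperone, PSMG1, differed by -0.01 ± 0.07. PSMG3 was the lowest at -0.06 ± 0.06, with 7 of 8 shunt lambs below the control mean (7.72, 7.92 and 8.11 in control, 7.77, 7.85 and 8.06 in shunt). The cap chaperones PSMD10, PSMD5 and PSMD9 differed by 0.01, 0.01 and -0.03.

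The activators bind the ends of the core in place of the cap. PSME1 and PSME2, which form the interferon-inducible activator PA28, differed by 0.03 ± 0.08 and -0.08 ± 0.08, and PSME4, the single-chain activator PA200, by 0.08 ± 0.08. PSME1 read 11.55, 11.72 and 12.14 in control and 11.62, 11.74 and 12.04 in shunt. PSME2 read 10.85, 11.03 and 11.49 in control and 10.84, 10.88 and 11.19 in shunt. In both genes control replicate 7 and shunt replicate 2 were the highest lambs of their groups.

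The inducible subunits of the immunoproteasome were the 3 members with the widest spread between lambs and the only class with every measured gene below 0. PSMB9 read 9.96, 9.79, 10.22, 9.84, 10.25, 10.26, 10.48 and 9.88 in control replicates 1 to 8 and 9.93, 10.17, 9.96, 10.02, 9.73, 9.502, 10.05 and 10.02 in shunt replicates 1 to 8. Only shunt replicate 2 was above the control mean, while control replicates 2, 4 and 8 were each lower than 6 of the shunt lambs. The difference was -0.16 ± 0.11 (95% interval -0.39 to 0.06, limma adjusted p = 0.479). PSMB8 read 10.53, 10.76 and 11.27 in control and 10.32, 10.72 and 11.14 in shunt lambs, a difference of -0.08 ± 0.12 (interval -0.34 to 0.18, limma adjusted p = 0.803). PSMB10 read 8.71, 9.12 and 9.70 in control and 8.89, 9.03 and 9.38 in shunt lambs, a difference of -0.05 ± 0.12 (interval -0.30 to 0.19, limma adjusted p = 0.866). PSMB8 was at -0.01 without shunt replicate 6 and at -0.13 without shunt replicate 2, and PSMB9 at -0.10 without shunt replicate 6. PSMB10 was at 0.03 without control replicate 7 and at -0.11 without control replicate 2.

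The inducible subunit was also set against the one it replaces within each lamb. The level of PSMB8 minus that of PSMB5 had a mean of -0.52 ± 0.23 (SD, n = 8) among control lambs and of -0.57 ± 0.26 among shunt lambs, so that the groups differed by -0.05. PSMB9 minus PSMB6 averaged -1.30 ± 0.24 in control and -1.42 ± 0.27 in shunt lambs, which differed by -0.13. PSMB10 minus PSMB7 averaged -1.81 ± 0.24 in control and -1.87 ± 0.10 in shunt lambs, which differed by -0.06. Each difference was smaller than the SD between control lambs, and single arrays moved them. Without shunt replicate 6 they were 0.02 for PSMB8 and PSMB5 and -0.05 for PSMB9 and PSMB6, and without control replicate 7 that of PSMB10 and PSMB7 was 0.0019. Levels come from different probe sets, so only the change of such a value between lambs can be read, not its size.

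**Figure D3:**
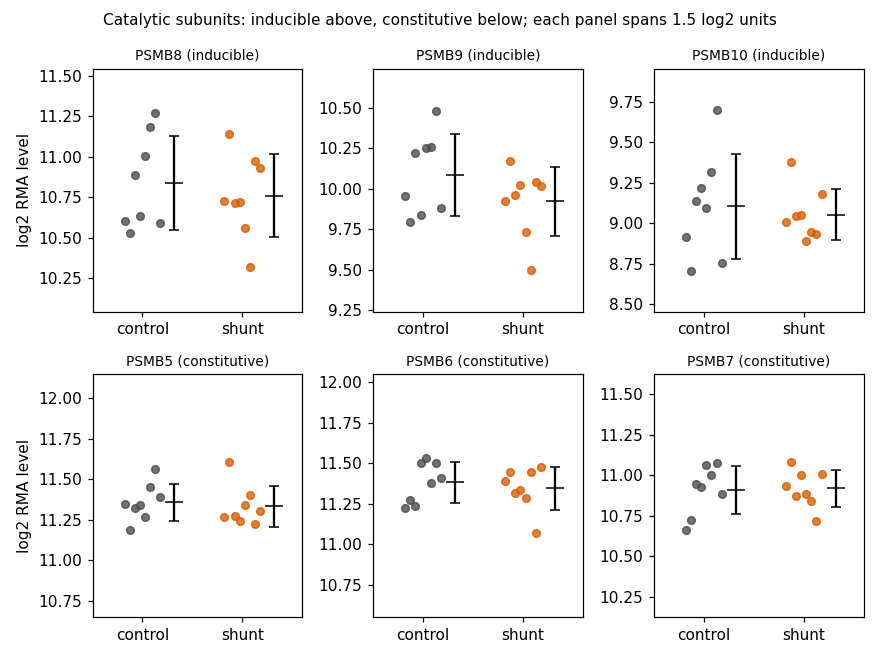
Log2 level in each lamb (points) with mean ± SD (bars) for the inducible subunits PSMB8, PSMB9 and PSMB10 (upper row) and the constitutive subunits PSMB5, PSMB6 and PSMB7 that they replace (lower row), every panel spanning 1.5 log2 units. The inducible subunits scatter more widely in both groups, and control and shunt lambs overlap in every panel.

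The spread between lambs separated the inducible subunits from the rest of the enzyme. The pooled SD within groups was 0.27 for PSMB8, 0.25 for PSMB10 and 0.23 for PSMB9, at percentiles 90.9, 88.5 and 84.3 of all genes. It ran from 0.09 to 0.19 in the other 35 members, with a median of 0.14 there and of 0.15 over all genes. The least variable members were the cap chaperone PSMD5 (0.09, percentile 6.73), the lid subunit PSMD11 (0.09) and the alpha subunit PSMA6 (0.10).

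Lambs high in one inducible subunit were high in the others. On deviations from the group means over 16 lambs, PSMB8 and PSMB9 correlated with Pearson's r = 0.951 (permutation p = 1e-05, the smallest that 100000 permutations can give, adjusted p = 3.5e-05 over 7 pairs) and Spearman's rho = 0.941 (permutation p = 1e-05). Without control replicate 7 and shunt replicate 2, the 2 lambs farthest from the median deviation of PSMB8, r was 0.931. For every other pair the 2 lambs left out were likewise the farthest on the gene named first. PSMB8 and PSMB10 correlated with r = 0.782 (permutation p = 0.00043, adjusted p = 0.001) and rho = 0.765 (permutation p = 0.002), with r = 0.647 without the same 2 lambs. PSMB9 and PSMB10 correlated with r = 0.746 (permutation p = 0.00156, adjusted p = 0.00273) and rho = 0.721 (permutation p = 0.00599), with r = 0.750 without control replicate 2 and shunt replicate 6. That kept control replicate 7, the highest control in both genes, and without it alone r was 0.645. Among the protein-coding genes of a sheep RefSeq annotation (ARS-UI_Ramb_v3.0) PSMB8 and PSMB9 lie side by side with the transporter genes TAP1 and TAP2, in the order TAP2, PSMB8, TAP1, PSMB9.

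The PA28 genes also varied together. PSME1 and PSME2 correlated with r = 0.929 (permutation p = 1e-05, adjusted p = 3.5e-05) and rho = 0.921 (permutation p = 1e-05), and with r = 0.815 without control replicate 7 and shunt replicate 2. Among its protein-coding genes, the same annotation has only EMC9 between them.

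Inducible and replaced subunits were less uniform. PSMB9 and PSMB6 had r = 0.0918 (permutation p = 0.738, adjusted p = 0.738) and rho = 0.124 (permutation p = 0.667), with r = 0.157 without control replicate 2 and shunt replicate 6. PSMB8 and PSMB5 had r = 0.455 (permutation p = 0.0886, adjusted p = 0.103) and rho = 0.203 (permutation p = 0.463), and r = -0.0609 without control replicate 7 and shunt replicate 2. Without shunt replicate 2 alone r was 0.279 and without shunt replicate 6 alone 0.607, so its size depended on which lambs were kept. PSMB10 and PSMB7 had r = 0.738 (permutation p = 0.0023, adjusted p = 0.00322) and rho = 0.853 (permutation p = 7e-05), with r = 0.663 without control replicates 2 and 7. All values of a lamb share 1 array and 1 RNA extract, so a property of the array enters each of these correlations. Only these 7 pairs were correlated. Whether other pairs of members lie as close was not tested, so no r here can be called particular to its pair.

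**Figure D4:**
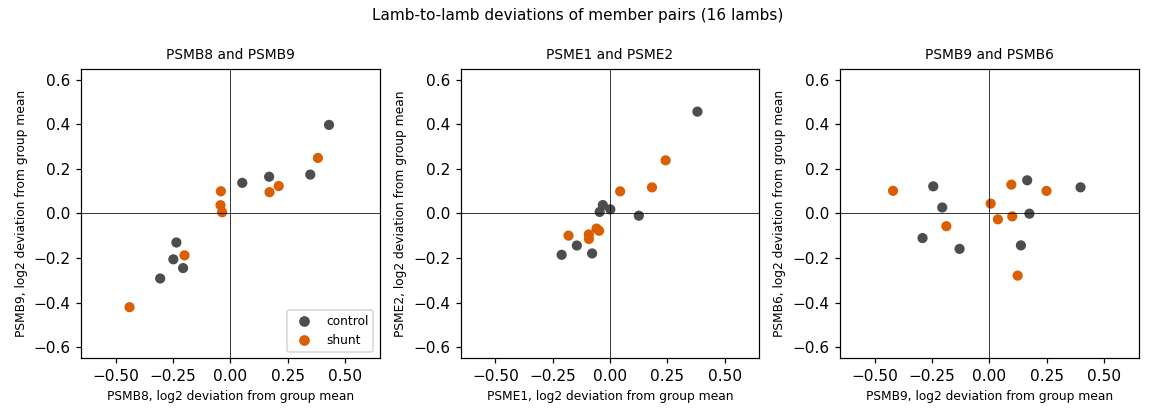
Deviation of each lamb from its group mean (log2) for PSMB8 against PSMB9, PSME1 against PSME2 and PSMB9 against PSMB6, with control and shunt lambs in different colours (16 points a panel). Points follow a line in the first and second panels (r = 0.951 and 0.929) and show no line in the last (r = 0.0918).

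Within both groups some lambs were high or low in most members. These counts were made over the members only, so whether they are particular to the proteasome genes was not tested. Control replicate 7 was above the control median in 35 of 38 genes and the highest control in 26. Control replicate 2 was below that median in 35 and the lowest control in 19, and control replicate 1 was below it in 30. Among the shunt lambs replicate 2 was above the shunt median in 34 genes and the highest in 24, and replicate 7 was below it in 32 and the lowest in 18. After quantile normalization again, control replicate 7 was still above the control median in 35 and shunt replicate 2 above the shunt median in 34, while shunt replicate 7 was below it in 23. Control replicate 2 was then the lowest control in 4 genes in place of 19, and control replicate 1 in 15 in place of 7. The mean over the members, each gene centred on its own mean, ran from -0.19 in control replicate 2 to 0.23 in control replicate 7 and from -0.10 to 0.14 in shunt lambs. These ranges are far wider than the difference between the group means, -0.0016 in control and 0.0016 in shunt.

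**Figure D5:**
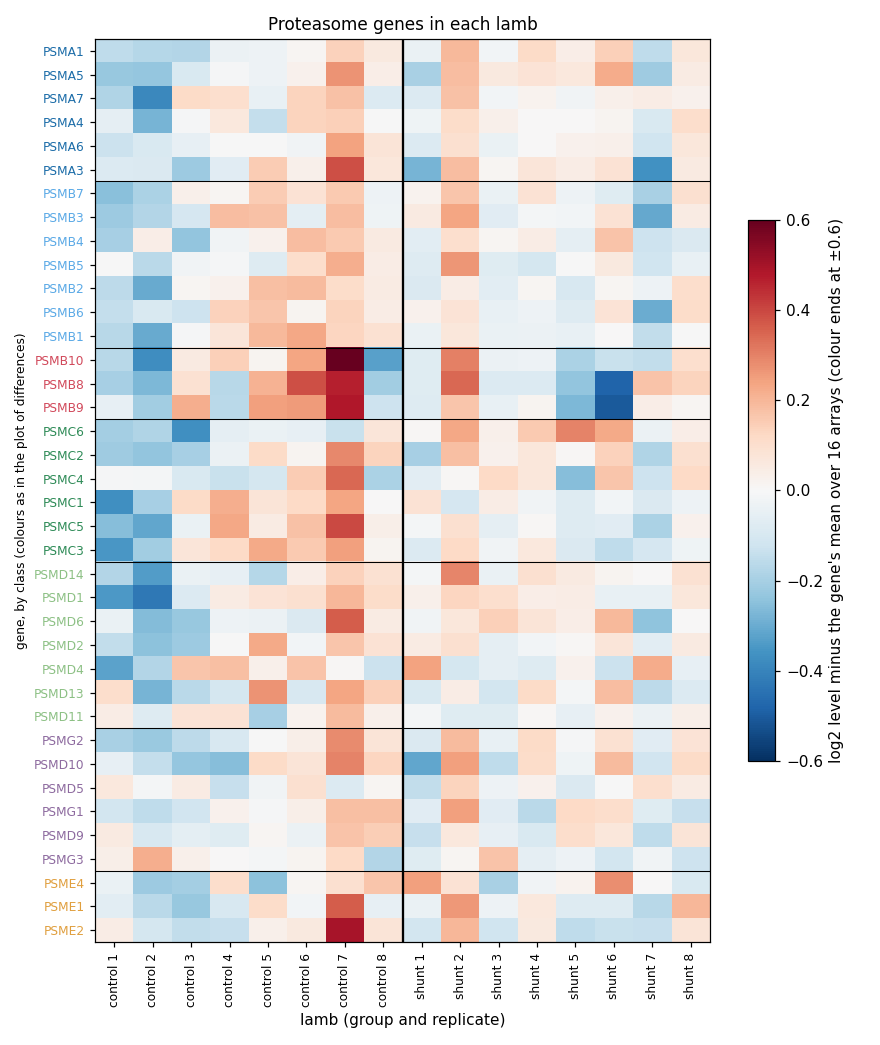
Log2 level of the 38 proteasome genes (rows, by class) in each of 16 lambs (columns), as the deviation from the gene's mean over all arrays. The column of control replicate 7 is high and that of control replicate 2 low in most rows, shunt replicate 2 is high in most rows, and no class separates the control columns from the shunt columns.

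The controls scattered more than the shunt lambs. The SD was larger in control than in shunt lambs for 32 of 38 members (84.2%), among them all 13 cap genes, and for 67.3% of all genes. The median SD of the members was 0.17 in control and 0.12 in shunt lambs, against 0.16 and 0.13 over all genes. With control replicate 7 left out the count was 22 of 38 (57.9%, against 66.0% of all genes). Without control replicates 1, 2 and 7 it was 16 of 38 (42.1%, against 53.1% of all genes), with 7 of 13 cap genes, and without control replicate 2 alone 29 of 38 (76.3%, against 56.7%). No test of the spread was made.

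Genes that work with the proteasome were read the same way. Of 12 measured genes for other proteins that bind it, 0 passed the threshold, 6 lay above 0 and 6 below, and the median was -0.01. The 4 of smallest p were the deubiquitinase USP14 (0.10 ± 0.06), the stress-induced ZFAND2A (-0.11 ± 0.09), the ubiquitin receptor ADRM1 (-0.08 ± 0.08) and the inhibitor PSMF1 (-0.05 ± 0.07), with limma adjusted p from 0.459 to 0.739. Of 8 genes for ubiquitin activation and delivery, 0 passed, and RAD23B, a shuttle that carries ubiquitinated proteins to the cap, was higher at an unadjusted p = 0.0181. It was the only 1 of the 8 under 0.05, where 6.63% of all genes were higher. RAD23B read 11.46, 11.67 and 11.79 in control and 11.71, 11.77 and 11.90 in shunt lambs, with 8 of 8 above the control mean (0.14 ± 0.05, limma adjusted p = 0.264). UBA6 (0.13 ± 0.09), UBQLN1 (0.07 ± 0.05) and UBQLN2 (0.06 ± 0.05) were next in that list.

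Among 8 regulators of proteasome gene transcription 0 passed. NFE2L1, the factor that raises proteasome genes when the enzyme is inhibited, read 10.83, 10.92 and 11.02 in control and 10.82, 11.01 and 11.06 in shunt lambs (0.06 ± 0.05, limma adjusted p = 0.580). NFYB, a subunit of the CCAAT-binding factor, read 10.15, 10.43 and 10.59 in control and 10.48, 10.55 and 10.86 in shunt, with all 8 shunt lambs above the control mean (0.21 ± 0.07, unadjusted p = 0.00963, limma adjusted p = 0.235). NFYB was the only 1 of the 8 at an unadjusted p under 0.05, where 6.63% of all genes were higher. Its partner subunit NFYC differed by -0.11 ± 0.06 and MAFF by -0.05 ± 0.08.

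In class I antigen processing, which takes up peptides made by the immunoproteasome, 0 of 10 measured genes passed. TAP1, a subunit of the peptide transporter and the protein-coding gene between PSMB8 and PSMB9, was the only one at an unadjusted p under 0.05. At that p 7.92% of all genes were lower, so 1 of 10 is near the background. TAP1 read 8.63, 8.83 and 9.28 in control and 8.33, 8.67 and 8.92 in shunt lambs, and 7 of 8 shunt lambs were below the control mean (-0.21 ± 0.09, unadjusted p = 0.0333, limma adjusted p = 0.308). RFX5 (-0.09 ± 0.05), TAPBP (0.08 ± 0.06) and ERAP2 (0.06 ± 0.07) followed. Of 8 measured genes of interferon-gamma signalling 0 passed, with JAK1 at 0.09 ± 0.05, IFNG at 0.08 ± 0.05, IFNGR2 at -0.06 ± 0.08 and CXCL10, an interferon-induced chemokine, at -0.29 ± 0.29. IFNG was very dim, at 4.65 to 4.95 over the 16 lambs.

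Since immune cells make much of the immunoproteasome, their markers are given beside it. Fewer cells of a type and less RNA per cell cannot be told apart in whole tissue. Of 14 measured markers of T and NK cells 10 were below 0, with a median of -0.09 and a mean level from -0.04 to 0.14 in control and from -0.15 to 0.04 in shunt lambs. Of 8 class II and antigen presenting cell markers 6 were below 0 (median -0.09, mean level from -0.21 to 0.32 in control and from -0.33 to 0.19 in shunt). Of 4 B cell markers 3 were below 0 (median -0.08, from -0.11 to 0.16 and from -0.12 to 0.07), and all 7 neutrophil markers were (median -0.17, from -0.29 to 0.45 and from -0.19 to 0.14). Of 8 macrophage markers 4 were below 0 (median 0.01, from -0.49 to 0.13 and from -0.27 to 0.38), but they went apart, from -0.21 for C1QB and -0.17 for C1QA to 0.42 for CD14 and 0.50 for MSR1. At an unadjusted p under 0.05, 3 T and NK cell, 2 B cell and 3 neutrophil markers were lower and 2 macrophage markers, CD14 and MSR1, higher. Over all genes 7.92% were lower and 6.63% higher at that p (limma). The markers counted as lower all lay below the median level of genes, from percentile 1.18 (CAMP) to 37.7 (NKG7). Of all genes 725 were lower and 607 higher at that p, but of those above the median level 247 and 397. No marker of these lists passed the threshold (limma), and none has a value of 0 on this scale. In control replicates 1 to 8 the neutrophil list read -0.29, 0.05, 0.19, 0.12, -0.16, 0.04, 0.45 and 0.21. The inducible subunits read -0.14, -0.28, 0.12, -0.06, 0.16, 0.29, 0.52 and -0.22 in those lambs. In shunt replicates 1 to 8 the neutrophil list read 0.14, 0.03, -0.13, -0.18, -0.01, -0.19, -0.11 and -0.17. The inducible subunits read -0.07, 0.27, -0.05, -0.03, -0.23, -0.37, 0.02 and 0.08 in those lambs. The inducible subunits were highest in control replicate 7 and shunt replicate 2 and lowest in control replicate 2 and shunt replicate 6. In that order the T and NK cell list read 0.04, 0.04, 0.14 and -0.02, and the B cell list 0.04, -0.01, 0.16 and -0.02. The macrophage list read 0.02, 0.38, -0.49 and -0.05, and the class II list 0.04, 0.18, -0.11 and -0.15. The class I antigen processing list read 0.11, 0.16, -0.07 and -0.06, and the interferon-gamma list 0.19, 0.15, -0.05 and -0.05. The part of immune cells in the values of PSMB8, PSMB9 and PSMB10 was not tested.

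Lists for other cells had these values beside the members, and no gene of them passed the threshold (limma). Of 23 cell cycle genes 22 were above 0, with a median of 0.30 and a mean level from -0.58 to 0.42 in control and from -0.14 to 0.56 in shunt lambs. Smooth muscle markers had a median of 0.24 with 6 of 8 above 0 (from -0.32 to 0.21 and from -0.07 to 0.24), and endothelial markers 0.09 with 9 of 12 (from -0.12 to 0.06 and from -0.02 to 0.20). The alveolar type 2 list had a median of -0.19 with 0 of 7 above 0 (from -0.05 to 0.28 and from -0.26 to 0.16), the alveolar type 1 list -0.17 with 1 of 6 (from -0.20 to 0.27 and from -0.17 to 0.10) and the erythroid list 0.08 with 4 of 7 (from -0.54 to 0.68 and from -0.14 to 0.31). At an unadjusted p under 0.05 (limma), 11 cell cycle genes, 4 smooth muscle and 4 endothelial markers were higher and 0 of these lists lower. At that p 3 alveolar type 2 and 3 alveolar type 1 markers were lower and 0 higher, and 0 erythroid markers either way. Over all genes 6.63% were higher and 7.92% lower. The smallest adjusted p in these lists was 0.0559, that of PECAM1. The part of these lists in the values of the members was not tested.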

How the data were processed

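Values are log2 levels of probe sets as the authors deposited them. The submitters' processing notes name RMA without a version. Per the labels, 1 ug of total RNA went into each biotin-labelled cRNA. The number of arrays limits the precision. Nothing in the labels names separate animals one by one, so p-values measure the spread between these arrays. Of 24128 probe sets, 112 control probe sets were left out. Of the other 24016, 13292 had 1 gene symbol, 86 had several and 10638 had none, and only those with 1 symbol were used.

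The comparison of shunt with control used limma 3.58.1 under R 4.3.3 (lmFit, eBayes, no covariate, two-sided) on all 9155 genes, with Benjamini-Hochberg adjustment at 0.05 and 95% intervals from the moderated fit. The fit was tested on simulated data. Members and lists were chosen with earlier results of these data known, so lists are described by counts and medians only. All members could be named, with values by lamb for the highest and lowest of each class and the catalytic subunits, and the 4 genes of smallest p in each pathway list. Correlations used permutations within groups. Alternatives were a replicate block, other scalings, array weights, another prior, a filter on dim probe sets, other probe set rules, a threshold of 0.10 and each array left out. The lamb counts after a new quantile normalization and the comparison of spreads were added after seeing the data. Plots used matplotlib 3.10.9 in Python 3.11.15.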

Additional observations from a re-analysis of the deposited data

Results flagged for a closer look

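A lamb stood apart from the other 7 of its group, judged by how much of the group's range its gap to the next lamb took up, in 5 of 96 sets of 8 values (members, subunit pairs and class means), where chance gives about 4.8. Shunt replicate 2 had the highest PSMB5 of the shunt lambs (11.61, next 11.40) and the highest PSMD14 (11.27, next 11.08). Shunt replicate 7 had the lowest PSMB6 (11.07, next 11.29). Control replicate 7 had the highest PSME2 of the controls (11.49, next 11.07), and shunt replicate 3 had the highest PSMG3 of the shunt lambs (8.06, next 7.91).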

How the results depend on the processing

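No member passed an adjusted p of 0.05 in any of the 9 other fits tried or with any of 16 arrays left out, nor 0.10 in the fit as reported (limma). The smallest adjusted p, that of PSMC6, ran from 0.103 to 0.238 over the alternatives and from 0.101 to 0.312 with 1 array left out. PSMC6 itself ran from 0.17 (mean of its probe sets) to 0.26 (array medians centred), and from 0.20 to 0.27 with 1 array left out. The number of members higher at an unadjusted p under 0.05 was 2 in place of 1 with array medians centred, and ran from 1 to 2 with 1 array left out. The members above 0 were 10 after quantile normalization again and 12 after cyclic loess, in place of 19, and 14 to 25 with 1 array left out. Class medians moved with the scaling, from 0.04 to -0.00031 in the alpha ring (cyclic loess), and after quantile normalization again from -0.03 to -0.07 in the beta ring, from -0.02 to -0.05 in the ATPases, from 0.04 to 0.0027 in the other cap genes and from -0.08 to -0.12 in the inducible subunits. Of 38 members 20 kept their sign in all these settings. The 5 closest of the 7 correlations kept their side of the threshold in 19 of 19 settings. That of PSMB8 and PSMB5 passed it in 3 of 19. With the replicate number as a block, 0 genes of 9155 passed in place of 8, and the smallest adjusted p of a member was 0.238. Arrays of the same number did not deviate together as a set (r from -0.26 to 0.22, over 0.1 in 2 of 8 pairs). That gave no sign of pairing by number, but a weak pairing could be missed by such a check. Signal over background is unknown, which limits PSMD13 and the dim probe sets most.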
